A study of Mus musculus with 24 samples.

Results

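The comparison described here set the hearts of 8 mice taken 24 h after a sham surgery against those of 8 mice taken at 0 min, 16 of the 24 samples of a time series of polyA RNA sequencing. All animals were male C57BL/6 mice (C57BL/6J, 8 to 12 weeks old, in the study's methods) that received pentobarbital and buprenorphine, were ventilated, and underwent a left thoracotomy with removal of the epicardium, in which a thread was passed around the left anterior descending coronary artery and never tied. At 0 min the thread was withdrawn at once and the heart was taken. The chest of the 24 h mice was closed after 45 min and the animals recovered until the next day. So both groups share the drugs, the opening of the chest and the needle, and the contrast covers the day that followed, including recovery, and not the surgery against no surgery. No mouse without surgery was analysed here. The left ventricle was dissected, with 8 animals per time in the study's methods, and 8 more mice, taken at 45 min, entered the fit of the spread. Samples were selected by their labels alone (time since surgery). All transcripts of the deposited table were considered, those with enough counts were tested, and only those in the study's own list could be named.

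Injury to a tissue is followed by a stereotyped sequence. Resident cells release chemokines, which are small secreted proteins that attract leukocytes, neutrophils arrive first, and monocytes follow and turn into macrophages that clear debris and direct repair. Cytokines of the interleukin-6 family act through the transcription factor STAT3 on acute phase genes, and fibroblasts and the mesothelial cells of the epicardium remodel the matrix. The heart muscle itself is made of sarcomeres fed by a very dense population of mitochondria. The question addressed by the study was which genes a sham operation changes in the myocardium over the following day.

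Of 63758 transcripts listed, 8940 carried enough counts for a test, and 687 of them (7.68%) differed between 24 h and 0 min at an adjusted p under 0.05 (quasi-likelihood test of edgeR, n = 8 mice per group, p-values adjusted by Benjamini-Hochberg). Transcripts that rose numbered 397 (4.44%) and those that fell 290 (3.24%). Falls outnumbered rises without 24 h replicate 4 (430 higher, 508 lower) or 24 h replicate 3 (277 higher, 287 lower). The rises were the larger changes. The median log2 fold change was 1.06 among transcripts that rose and -0.87 among those that fell, 212 rises (53.4%) and 105 falls (36.2%) exceeded 1 on the log2 scale, and 24 rises but 1 fall exceeded 3. Over all transcripts tested the median was 0.0033. Gene symbols were used only for the 1209 transcripts in the study's own list of transcripts that changed over time in these same samples. That list named 365 of the rises and 252 of the falls. Of its 1097 tested transcripts 56.2% passed here, with a median log2 fold change of 0.27. The list was selected on these libraries, so the direction of any gene group drawn from it is not independent evidence. All log2 fold changes below are 24 h minus 0 min from the fitted model, and the value after ± is the standard error. Levels are given as CPM, the share of a library's counts scaled for composition, and are compared between mice and not between genes.

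**Figure D1:**
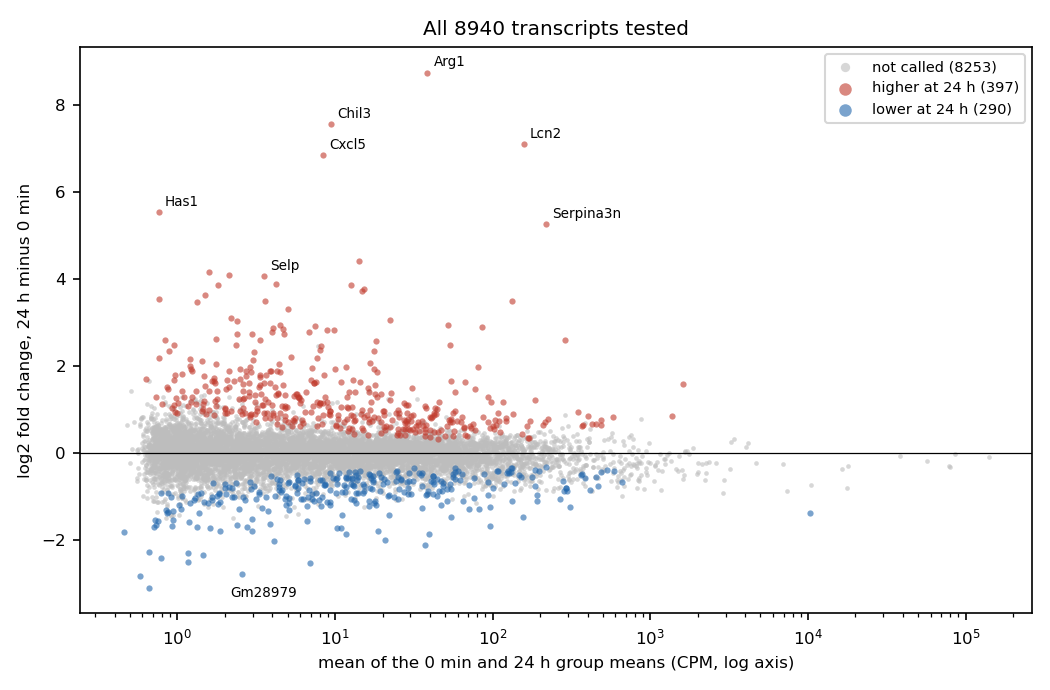
Log2 fold change, 24 h minus 0 min, of each of the 8940 transcripts tested against the mean of the 0 min and 24 h levels (CPM, log axis). Red points mark the 397 transcripts higher at 24 h, blue points the 290 lower, and grey points those not called; the rises reach 8.73 (Arg1), whereas the falls end at -3.09.

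The agreement between mice was assessed by counting how many of the 8 mice at 24 h lay beyond the whole range of the 8 mice at 0 min. Without regard to any test, 89 transcripts (0.996% of those tested) were higher in each 24 h mouse than in any 0 min mouse, and 59 (0.66%) were lower. Among the called transcripts, all 8 mice were beyond the range for 86 rises (21.7%) and 57 falls (19.7%), and 7 of 8 were for a further 117 rises and 87 falls. At the other end, 46 rises and 49 falls had at most 4 mice beyond the 0 min range, and these transcripts overlapped widely between the groups. The bar chart of mice beyond the range shows that the most frequent count was 7 mice in both directions.

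**Figure D2:**
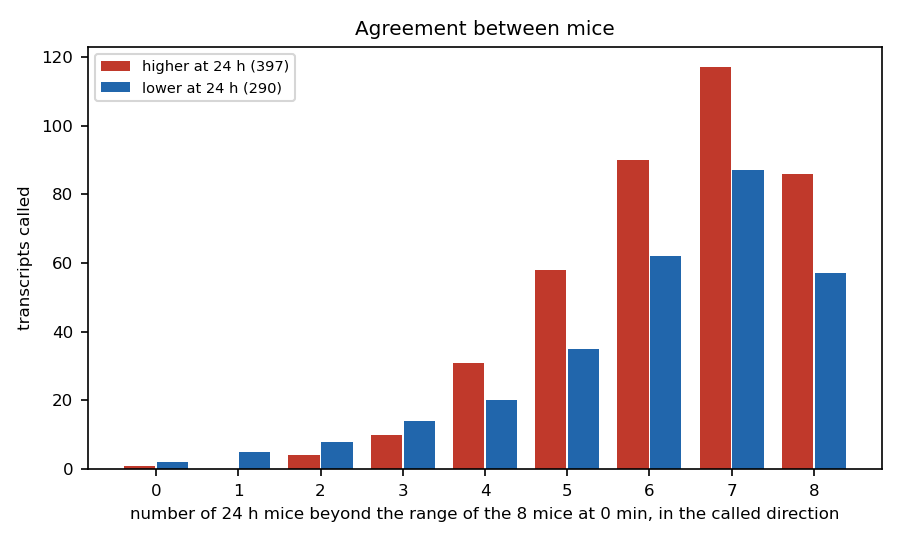
Number of called transcripts (vertical axis) by the number of 24 h mice beyond the range of the 8 mice at 0 min (horizontal axis), for rises in red and falls in blue. Both distributions peak at 7 mice, with 117 rises and 87 falls, and 86 rises and 57 falls reach 8.

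The 16 libraries held 9887957 to 13717859 counts. Transcripts with a count numbered 14597 to 18725 in the 0 min libraries and 15753 to 18865 at 24 h, and the 20 most abundant transcripts took 58.7% to 67.4% of a library. No library stood so far apart that it was left out, but the mice were not alike. Among the 0 min mice, replicate 5 was the highest for neutrophil markers, and among the 24 h mice replicate 8 was the lowest in the scores of most leukocyte lists described below. Cardiomyocyte markers were present throughout: the summed level of the 4 with a symbol (Actc1, Actn2, Mybpc3 and Lmod2) was 15250 to 22620 CPM at 0 min and 6013 to 10770 CPM at 24 h. Actc1 made up most of that sum, 12020 to 18880 CPM at 0 min and 3390 to 7789 CPM at 24 h. Of the 4, Actc1 and Mybpc3 fell and the other 2 did not pass. In whole tissue, more cells of a type and more RNA per cell cannot be told apart, and this holds for each gene group below. Reads were obtained from pools of libraries prepared after the operations of more than 1 surgeon. The labels do not tie pools or surgeons to mice, and their part in the differences was not tested.

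The 12 largest rises without overlap between the groups were led by a pair of genes of alternatively activated macrophages. Arg1 (chr10:24915221-24927484, GRCm38, minus strand) encodes arginase 1, which turns arginine into ornithine. Its level at 0 min was 0, 0.132 and 0.684 CPM in the lowest, median and highest mouse, and 8.8, 71.4 and 157 CPM at 24 h. The difference was 8.73 ± 0.71 on the log2 scale (adjusted p = 7.28e-09), or about 425-fold. This fold rests on a mean of 1.875 counts per library at 0 min, and alternative fits gave 8.46 to 9.41 on the log2 scale. Lack of overlap was a condition for entry among these 12 and adds nothing to the values of any of them. Chil3 encodes Ym1, a chitinase-like protein of monocytes and macrophages. It was nearly absent at 0 min (0, 0.0795 and 0.195 CPM) and reached 2.67, 17.6 and 48.3 CPM at 24 h. That change, 7.55 ± 0.68 (adjusted p = 3.18e-08), was the next largest. Close copies of Chil3 exist, and how reads shared between copies were counted is not given in the sources used here.

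Genes that call or mark neutrophils came next. Lcn2 (chr2:32384633-32388252, GRCm38, minus strand) encodes lipocalin 2, a neutrophil granule protein that binds bacterial siderophores and is also made by stressed parenchymal cells. The 0 min mice held 0.859, 1.66 and 7.52 CPM (lowest, median and highest), and the 24 h mice 89.4, 329 and 521 CPM. The lowest mouse at 24 h was thus far above the highest at 0 min, and the change was 7.09 ± 0.48 (adjusted p = 2.94e-10). Cxcl5, a ligand of the neutrophil receptor Cxcr2, went from 0, 0.0934 and 0.318 to 4.2, 15.2 and 34.9 CPM, a change of 6.84 ± 0.56 (adjusted p = 7.28e-09). The receptor gene Cxcr2 had 0, 0.171 and 0.639 CPM at 0 min and 1.55, 3.06 and 8.26 CPM at 24 h. Its rise of 4.08 ± 0.59 (adjusted p = 3.80e-05) rested on few counts. Selp, which encodes P-selectin, the adhesion molecule stored by platelets and endothelial cells that lets leukocytes roll, rose from a median of 0.328 to 7.08 CPM (4.05 ± 0.46, adjusted p = 1.81e-06). Ccl7, a chemokine for monocytes, rose from a median of 1.24 to 16.7 CPM (3.85 ± 0.49, adjusted p = 5.95e-06).

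The remaining 5 belong to the acute phase, the matrix, epithelium and the stretched muscle. Serpina3n, a secreted inhibitor of serine proteases, was already measurable at 0 min (4.96, 6.21 and 32.9 CPM) and reached 176, 437 and 614 CPM at 24 h. The increase was 5.25 ± 0.40 (adjusted p = 2.35e-09), and the lowest 24 h mouse was replicate 8. Mmp3, or stromelysin 1, which degrades proteoglycans and activates other proteases, was even between mice: 1.08, 1.94 and 4.19 CPM at 0 min against 16.5, 28.5 and 37.4 CPM at 24 h (3.76 ± 0.31, adjusted p = 7.28e-09). Krt8, a keratin of simple epithelia and mesothelium, rose by 3.87 ± 0.51 (adjusted p = 1.04e-05). Ankrd2, a stretch-responsive ankyrin repeat protein of striated muscle, rose by 3.85 ± 0.52 (adjusted p = 1.48e-05). Has1, a hyaluronan synthase, held 2 counts over all 0 min libraries and 171 at 24 h, with 6 to 45 in each mouse. The ratio of its scaled levels was 70.7, with a 95% interval of 19.3 to 589 that covers counting error only.

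**Figure D3:**
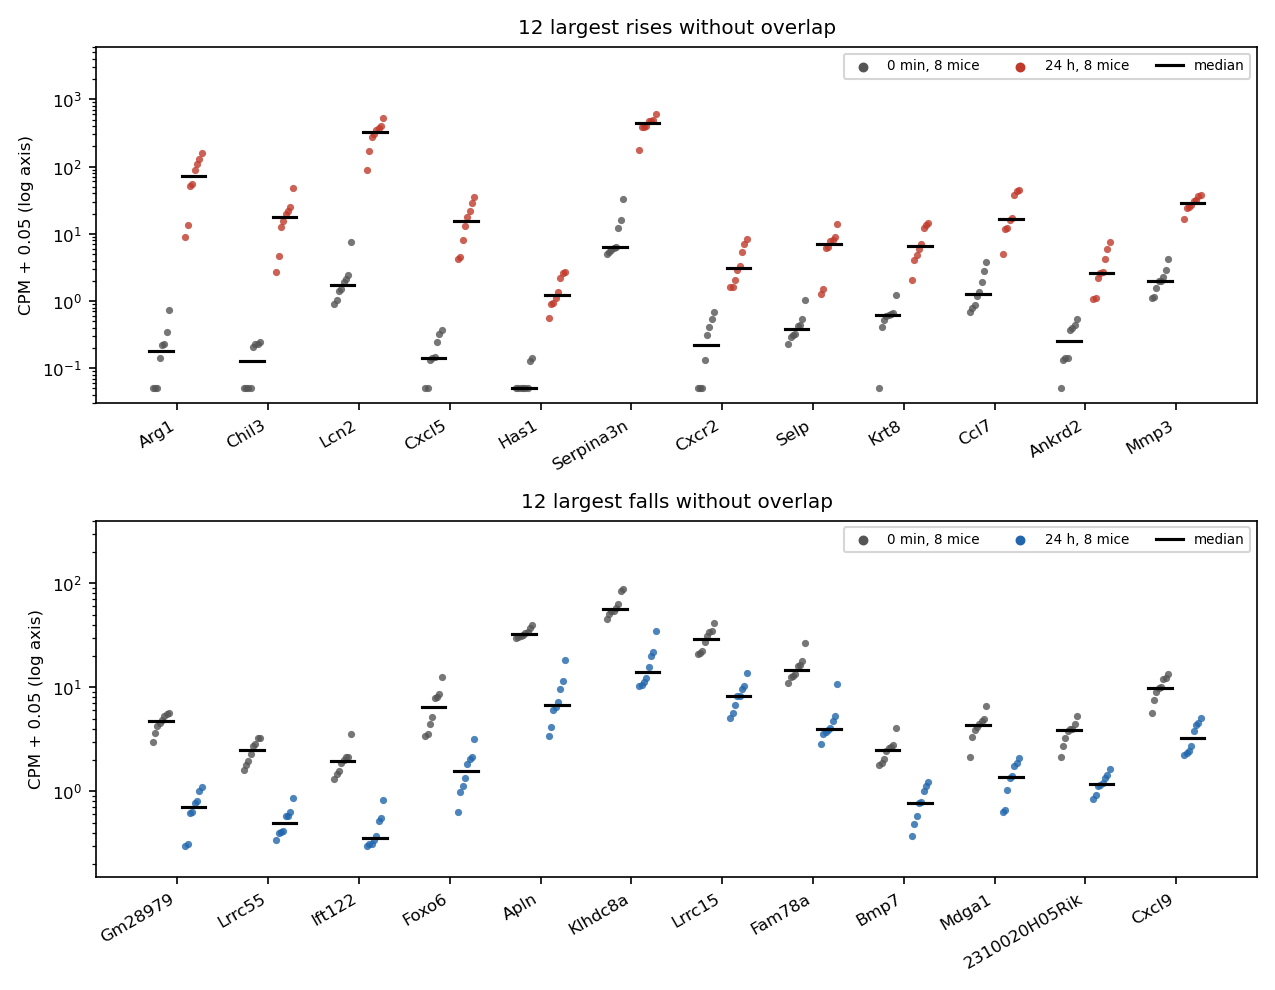
Level in each mouse (CPM plus 0.05, log axis) of the 12 largest rises (upper panel) and the 12 largest falls (lower panel) without overlap. Grey points are the 8 mice at 0 min, red or blue points the 8 at 24 h, and bars the medians; for Arg1 the medians are 0.132 and 71.4 CPM, and for Apln 32.4 and 6.75 CPM.

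All 4 tested members of the list of neutrophil chemokines and receptors rose, as did all 5 tested neutrophil granule and surface markers. Background calls were 7.68% of all transcripts tested, but 56.2% of the tested transcripts with a symbol, from which every list here and below was drawn. The latter share is the one to set beside a list count. The called shares of the ribosome, endoplasmic reticulum, ion channel, calcium store and adrenergic lists below were under it. So were those of the respiratory chain, mitochondrial translation, fatty acid, lipid synthesis, vascular and immediate early lists. Besides Cxcl5 and Cxcr2, Cxcl1 rose by 2.04 ± 0.32 (adjusted p = 0.000123), with 1, 1.52 and 2.96 CPM at 0 min and 2.18, 6.74 and 11.3 CPM at 24 h. Mmp9, a gelatinase carried in neutrophil granules, rose without overlap from 1.19, 2.02 and 4.79 to 5.25, 13.5 and 39.1 CPM (2.83 ± 0.45, adjusted p = 0.000123). Mmp8, the neutrophil collagenase, rose by 4.15 ± 0.79 (adjusted p = 0.000988), and 6 of 8 mice lay beyond the 0 min range. Cd177, a neutrophil surface protein, was called (2.59 ± 0.72, adjusted p = 0.0243) but lost its call in 9 of the 16 fits with 1 library left out. The median log2 fold change was 3.40 in the chemokine list and 2.83 in the marker list. The summed level of the 4 defining markers with a symbol (Lcn2, Mmp8, Mmp9 and Cd177) was 2.32 to 14.2 CPM in the 0 min mice and 95.7 to 542 CPM in the 24 h mice. Nearly all of the 24 h sum was Lcn2 (89.4 to 521 CPM). Further defining markers, S100a8, S100a9, Camp, Ltf, Ly6g and Csf3r, were absent from the study's list of changed transcripts and were not analysed here. Of the 17 symbols of the granule and surface marker list, 10 were absent from the study's list. A further 2 had too few counts for a test. The part of neutrophil number in the changes of other lists was not tested.

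Genes of the monocyte and macrophage line rose broadly. All 9 tested transcripts of the CC chemokine list were higher, with a median of 2.85, and 20 of 22 tested transcripts of the monocyte and macrophage list, with a median of 1.71. In the 16 fits with 1 library left out, the call of Ccl11 was lost in 7 and that of Ccl8 in 3. Ly6c2, in the macrophage list, lost its call in 9. Ccl2, the principal ligand of the monocyte receptor Ccr2, had 1.05, 1.78 and 3.89 CPM at 0 min and 2.5, 22.4 and 54.8 CPM at 24 h (3.71 ± 0.48, adjusted p = 9.01e-06). For Ccl2, 7 of 8 mice exceeded the 0 min range. Ccr2 itself rose by 2.91 ± 0.42 (adjusted p = 3.30e-05). Ccl6 separated the groups fully, from 9.31, 18.5 and 38.3 to 42.5, 164 and 237 CPM (2.90 ± 0.36, adjusted p = 5.20e-06).

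Within the macrophage list the changes ranged from 0.58 to 8.73. The scavenger receptor Msr1 rose by 2.94 ± 0.39, Ms4a6d by 2.81 ± 0.34 and the lysosomal glycoprotein gene Gpnmb by 2.77 ± 0.46, with adjusted p = 1.22e-05, 3.72e-06 and 0.000195. Mpeg1, a pore-forming protein of phagocytes, rose without overlap from 6.12, 8.12 and 9.74 to 14.4, 24.9 and 50.8 CPM (1.85 ± 0.25, adjusted p = 1.87e-05). Genes often used to mark resident cardiac macrophages were among the smaller changes. Mrc1, the mannose receptor, had 27.2, 36.7 and 52.8 CPM at 0 min and 49.2, 72.9 and 109 CPM at 24 h (0.97 ± 0.21, adjusted p = 0.00372), and Lyve1, a hyaluronan receptor of resident macrophages and lymphatic vessels, rose by 0.78 ± 0.16 (adjusted p = 0.00184). The summed level of the 7 defining markers with a symbol was 51.3 to 85.7 CPM at 0 min and 102 to 232 CPM at 24 h, without overlap. Adgre1, Csf1r and Itgam were absent from the study's list of changed transcripts and were not analysed here. Stab1 (0.58 ± 0.21, adjusted p = 0.106) and Vsig4 (1.10 ± 0.37, adjusted p = 0.0673) did not pass. The calls of Cd68 (1.63 ± 0.40) and Spi1 (1.41 ± 0.35) were lost without 24 h replicate 3, and that of Fcgr1 (1.79 ± 0.44) without 24 h replicate 2.

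Of 4 tested subunits and activators of the phagocyte oxidase, 3 rose, Rac2 and Cybb among them, with a list median of 1.18. Cybb, the catalytic subunit, rose by 0.83 ± 0.23 (adjusted p = 0.0208), a call lost without 24 h replicate 2. Genes of class II antigen presentation were lower or did not pass. Cd74, the invariant chain of class II molecules, fell from 3.72, 6.01 and 15.9 to 2.04, 3.11 and 5.61 CPM (-1.02 ± 0.28, adjusted p = 0.0192), and this call was lost without 0 min replicate 5 (adjusted p = 0.0806). H2-Aa, a class II chain, was -0.83 ± 0.31 (adjusted p = 0.116), which did not pass, although without 24 h replicate 4 both genes were called lower. Itgax, which encodes the integrin CD11c, rose without overlap by 2.49 ± 0.41 (adjusted p = 0.000178).

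In the acute phase and interleukin-6 family list, 9 of 10 tested genes rose, with a median of 2.23. Lrg1, a secreted leucine-rich glycoprotein, had 41.4, 65 and 191 CPM at 0 min and 120.5, 503 and 687 CPM at 24 h (2.58 ± 0.36, adjusted p = 2.13e-05), and only 1 mouse at 24 h fell within the 0 min range. Socs3, the feedback inhibitor of interleukin-6 signaling and a direct STAT3 target, rose from 3.8, 5.45 and 9.38 to 7.99, 28.1 and 60.6 CPM (2.34 ± 0.43, adjusted p = 0.000598). Ceruloplasmin (Cp), a copper carrier, rose without overlap by 1.16 ± 0.16 (adjusted p = 1.73e-05). Hp, which encodes haptoglobin, the plasma scavenger of hemoglobin, rose by 4.42 ± 0.87 (adjusted p = 0.00132). Its 24 h levels were very uneven, from 1.86 to 165 CPM around a median of 8.23 CPM. Complement C4b (1.29 ± 0.39, adjusted p = 0.0391) lost its call in 13 of 16 fits with 1 library left out, and Clcf1 (1.02 ± 0.32, adjusted p = 0.0504) was just outside the threshold.

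Matrix proteases split. In the protease list 5 of 9 tested members rose and 2 fell, with a median of 0.83. Among the rises, Mmp8 and Mmp9 are also counted in the neutrophil marker list. Mmp14, a membrane-bound collagenase, rose without overlap from 29, 41.9 and 48.7 to 53.4, 69.7 and 85.5 CPM (0.78 ± 0.14, adjusted p = 0.000451), and Adamts15, a protease of proteoglycans, by 0.73 ± 0.21 (adjusted p = 0.0293), a call lost in 8 of the 16 fits with 1 library left out. Mmp15, another membrane-bound metalloprotease, moved in the opposite direction without overlap, from 184, 254 and 321 to 94.3, 120.2 and 148 CPM (-1.11 ± 0.13, adjusted p = 1.78e-06). Htra1, a secreted serine protease, also fell (-1.05 ± 0.23, adjusted p = 0.00372).

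In the interstitial matrix, 9 of 16 tested transcripts rose and 3 fell, with a median of 0.67. Prg4, or lubricin, which coats sliding surfaces, rose without overlap from 2.71, 4.62 and 8.11 to 16.8, 43.2 and 68.1 CPM (3.05 ± 0.29, adjusted p = 9.90e-08). Thrombospondin 2 (Thbs2) rose by 0.80 ± 0.17 (adjusted p = 0.0028), and the collagen-modifying enzyme gene Plod3 by 0.62 ± 0.15 (adjusted p = 0.00655). Among fibrillar collagens, Col5a2 rose by 0.72 ± 0.19 (adjusted p = 0.0145), a call lost without 24 h replicate 2, Col3a1 by 0.75 ± 0.22 (adjusted p = 0.0359), a call lost in 10 of the 16 fits with 1 library left out, and Col1a2 was 0.47 ± 0.16 (adjusted p = 0.0652). Fmod (fibromodulin), which organizes collagen fibrils, fell by 1.64 ± 0.40 on the log2 scale (adjusted p = 0.00953), as did Col8a2 (-1.35 ± 0.39) and Col14a1 (-0.81 ± 0.24), whose calls were lost in 4 and 6 of these fits. The number of rises in this list was 3 without 24 h replicate 2, 4 without replicate 3 or 5 and 5 without replicate 7, and 5 without any 1 of 0 min replicates 3, 6, 7 or 8. The number of falls was 1 without 24 h replicate 2.

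Components of the basement membrane were mostly lower, with 4 falls and 1 rise among 5 tested and a median of -0.67. Col4a3 fell in all 8 mice beyond the 0 min range, from 6.96, 9.25 and 13.8 to 3.54, 4.49 and 5.83 CPM (-1.07 ± 0.19, adjusted p = 0.000386). Hmcn1 fell by 0.67 ± 0.19 on the log2 scale (adjusted p = 0.0254), and its call was lost with upper quartile scaling, under which the list held 1 fall. Markers of mesothelium and simple epithelium rose in 6 of 7 cases, with a median of 2.14. Prg4, given above with the interstitial matrix, is counted here too. Krt7 went without overlap from 0.159, 0.568 and 0.779 to 0.879, 2.47 and 11.3 CPM (3.03 ± 0.59, adjusted p = 0.0012), Krt18 rose by 1.98 ± 0.41 (adjusted p = 0.00205), and Aldh1a2, which makes retinoic acid in the activated epicardium, rose without overlap by 1.94 ± 0.27 (adjusted p = 2.30e-05). Upk1b, a mesothelial uroplakin, rose by 2.14 ± 0.57 (adjusted p = 0.0168), lost without 24 h replicate 5. The summed level of the 5 fixed mesothelial markers with a symbol was 1.19 to 8.21 CPM at 0 min and 5.8 to 50.7 CPM at 24 h. The mesothelial genes Msln, Wt1 and Upk3b were absent from the study's list of changed transcripts and were not analysed here. The part of mesothelial RNA in the matrix changes was not tested.

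Among antioxidant and metal defense genes 9 of 12 tested rose, with a median of 0.84. Of these, 5 separated the groups fully. At least 86 of the 1097 tested transcripts with a symbol did so in this direction, against 0.996% of all transcripts tested. Hmox1, which breaks down heme, rose from 8.6, 11 and 19.9 to 19.7, 81.9 and 198 CPM (2.93 ± 0.34, adjusted p = 2.13e-06). Metallothionein 2 (Mt2), which binds zinc and copper, rose from 12.5, 18.2 and 53.3 to 75.8, 244 and 401 CPM (3.50 ± 0.40, adjusted p = 1.78e-06), whereas Mt1 was 0.81 ± 0.48 (adjusted p = 0.4). Reads of this pair may be shared. Gclm, a subunit of the enzyme that limits glutathione synthesis, rose without overlap from 15.3, 18.8 and 21.7 to 26.8, 37.9 and 49 CPM (1.11 ± 0.13, adjusted p = 2.13e-06). Srxn1, which reactivates oxidized peroxiredoxins, rose by 0.88 ± 0.16 (adjusted p = 0.000597). Sod2, the superoxide dismutase of mitochondria, was -0.45 ± 0.14 (adjusted p = 0.0546), the opposite sign without passing the test.

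Genes for making protein changed by smaller amounts. Of the amino acid transport and supply list 6 of 9 tested rose, with a median of 0.91, led by the transporter gene Slc7a8 (1.64 ± 0.27, adjusted p = 0.000185) and the mitochondrial folate enzyme gene Mthfd2 (1.33 ± 0.28, adjusted p = 0.00294). Chac1, a target of the stress factor ATF4, was -0.28 ± 0.24 (adjusted p = 0.599). In ribosome biogenesis 6 of 14 tested rose and none fell, with a median of 0.46. Rrp12 separated the groups fully (0.82 ± 0.15, adjusted p = 0.000619), and Wdr46 rose by 0.55 ± 0.15 (adjusted p = 0.0193). In the endoplasmic reticulum list 8 of 17 tested rose and none fell, with a median of 0.53, including the disulfide isomerase gene Pdia4 (0.84 ± 0.18, adjusted p = 0.00327) and Serp1, which stabilizes membrane proteins in formation (0.64 ± 0.14, adjusted p = 0.00346, without overlap). These small changes depended on single libraries. The ribosome count was 1 without 24 h replicate 2 or 3, 2 without 0 min replicate 6 or 24 h replicate 5, 3 without 0 min replicate 5 or 24 h replicate 1, 6 or 7, and 10 without 0 min replicate 8. The endoplasmic reticulum count was 3 without 24 h replicate 2, 4 without 0 min replicate 1 or 24 h replicate 3 or 7, and 5 without 0 min replicate 3 or 24 h replicate 5.

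Promoter sequences show which letters lie in front of some of the genes above. The stretches below are taken from RefSeq promoters (GRCm38.p6, 250 bases before to 50 after a start) and cover a match, in capitals, with 30 bases on each side, read 5′ to 3′ on the strand of the gene. Mmp3, Srxn1, Chil3, Socs3, Serpina3i, Cxcl1 and Gclm were chosen for display because they rose here and held a match. They do not stand for the rising genes in general. The motifs are those of factors of inflammation and oxidative stress. The motifs, searched on both strands, were TGANTCA (AP-1), TTCNNNGAA (STAT), the NF-kB motif of 10 bases and TGACNNNGC (the antioxidant response element); some matches of TGANTCA and TGACNNNGC overlap.
Mmp3, AP-1, chr9:7445746-7445812, plus strand: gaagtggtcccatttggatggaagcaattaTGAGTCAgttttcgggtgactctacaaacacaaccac
Srxn1, AP-1, 2 matches, chr2:152105392-152105515, plus strand: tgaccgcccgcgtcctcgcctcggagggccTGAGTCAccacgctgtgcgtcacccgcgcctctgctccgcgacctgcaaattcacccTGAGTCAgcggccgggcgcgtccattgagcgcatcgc
Chil3, STAT, chr3:106167698-106167766, minus strand: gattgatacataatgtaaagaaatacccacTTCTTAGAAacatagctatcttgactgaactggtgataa
Socs3, STAT, chr11:117969482-117969550, minus strand: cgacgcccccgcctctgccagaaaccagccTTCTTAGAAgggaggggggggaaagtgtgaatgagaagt
Serpina3i, STAT, chr12:104262990-104263058, plus strand: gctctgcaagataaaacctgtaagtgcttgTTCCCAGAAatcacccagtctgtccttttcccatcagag
Cxcl1, NF-kB, chr5:90891144-90891213, plus strand: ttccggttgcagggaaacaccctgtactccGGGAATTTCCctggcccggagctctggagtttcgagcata
Gclm, antioxidant response element, chr3:122245393-122245461, plus strand: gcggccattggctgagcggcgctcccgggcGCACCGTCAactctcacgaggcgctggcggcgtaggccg

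Over all 32544 promoters of that length, TGANTCA was present in 7.79%, TTCNNNGAA in 8.33%, the NF-kB motif in 0.415% and TGACNNNGC in 12.4%. The motif TTGCNNCAA (C/EBP), searched too, was in 2.09%. Promoters were found for 9 of the 12 largest rises, of which 2 held TGANTCA and 1 held TTCNNNGAA, and none held any other of these motifs. Of 12 promoters of 9 of the largest falls, 2 held TGANTCA, 2 held TTCNNNGAA and 2 held TGACNNNGC. Among 11 promoters of 10 genes of the antioxidant list, 5 held TGACNNNGC, as did 3 of 13 promoters of the sarcomere list (23.1%) and 4 of 16 of the respiratory chain list (25%). Of 6 promoters of 5 acute phase genes, 2 held TTCNNNGAA. A match describes letters and not binding, and no factor was measured.

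The 12 largest falls without overlap ranged from -1.55 to -2.79. Gm28979, a long noncoding RNA gene (chr9:101342194-101348017, GRCm38, plus strand), fell most. Its levels were 2.93, 4.65 and 5.55 CPM at 0 min and 0.247, 0.651 and 1.05 CPM at 24 h, a change of -2.79 ± 0.26 (adjusted p = 4.51e-08). Lrrc55, an auxiliary subunit of calcium-activated potassium channels, fell from 1.56, 2.46 and 3.23 to 0.292, 0.444 and 0.807 CPM (-2.34 ± 0.24, adjusted p = 4.07e-07). Both rest on low levels. Apln (chrX:48025146-48034853, GRCm38, minus strand), which encodes apelin, the vascular peptide that widens vessels and strengthens the heartbeat, was even between the mice at 0 min. It went from 30, 32.4 and 39.3 to 3.38, 6.75 and 18.1 CPM (-2.01 ± 0.24, adjusted p = 2.13e-06). The gene of its receptor, Aplnr, fell as well without overlap, from 61.2, 93.2 and 109 to 22.7, 42.4 and 61.1 CPM (-1.09 ± 0.18, adjusted p = 0.000217).

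Klhdc8a, a kelch domain gene, had 45.7, 56.1 and 88.5 CPM at 0 min and 10.3, 13.9 and 35 CPM at 24 h (-1.87 ± 0.25, adjusted p = 1.23e-05). Foxo6, a forkhead transcription factor, fell by 2.03 ± 0.31 on the log2 scale (adjusted p = 6.59e-05), and Bmp7, a growth factor known to oppose TGF-beta signaling, by 1.71 ± 0.24 (adjusted p = 2.93e-05). Lrrc15, a leucine-rich repeat membrane protein of matrix-producing fibroblasts, fell from 20.9, 29.1 and 41.8 to 5, 8.21 and 13.6 CPM (-1.79 ± 0.20, adjusted p = 1.03e-06). Cxcl9, a chemokine induced by interferon gamma, fell while the chemokines named above rose: 5.62, 9.89 and 13.5 CPM at 0 min against 2.2, 3.21 and 5 CPM at 24 h (-1.55 ± 0.23, adjusted p = 4.42e-05). The other 4 of the 12 were a transcript of the cilium transport gene Ift122 (-2.30 ± 0.28), Fam78a (-1.72 ± 0.31), Mdga1 (-1.69 ± 0.26) and the noncoding gene 2310020H05Rik (-1.64 ± 0.24). All 24 transcripts named by size kept their call and direction under each alternative in which they could be fitted.

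Genes of the contractile apparatus were mostly lower. In the sarcomere list 8 of 15 tested transcripts fell and 1 rose, with a median of -0.45. Of the falls, 6 separated the groups fully. At least 56 of the 1097 tested transcripts with a symbol did so in this direction, against 0.66% of all transcripts tested. Actc1, cardiac alpha actin, builds the thin filament. It had 12020, 14590 and 18880 CPM in the lowest, median and highest mouse at 0 min and 3390, 5927 and 7789 CPM at 24 h. The change of -1.38 ± 0.18 (adjusted p = 1.07e-05) corresponds to a 2.6-fold lower level. Lmod3, which nucleates actin filaments, fell from 104, 136 and 160.5 to 39.5, 51.8 and 80.6 CPM (-1.24 ± 0.15, adjusted p = 3.05e-06). Mylk4, a myosin kinase, fell by 1.48 ± 0.23 on the log2 scale, Myh7b, a slow-type myosin, by 1.28 ± 0.23 and Mybpc3, cardiac myosin binding protein C, by 0.81 ± 0.17, with adjusted p = 9.91e-05, 0.000552 and 0.00265. Mybpc2, the isoform of fast skeletal muscle, rose by 0.70 ± 0.16 (adjusted p = 0.0053). Actn2 (-0.20 ± 0.11, adjusted p = 0.346) and Lmod2 (-0.20 ± 0.14, adjusted p = 0.524) did not pass. The cardiac genes Myh6, Tnni3 and Tnnt2 were absent from the study's list of changed transcripts and were not analysed here.

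Against this, 4 of 6 tested genes of cardiac stress and the cytoskeleton rose, with a median of 1.21, although 1 of the 4, Clu, lost its call in 14 of the 16 fits with 1 library left out. Ankrd1, a stretch and stress marker related to Ankrd2, had 632, 726 and 1171 CPM at 0 min and 852, 2377 and 3685 CPM at 24 h (1.58 ± 0.27, adjusted p = 0.000245). For Ankrd1 7 of 8 mice exceeded the 0 min range. Tubb3 rose by 1.88 ± 0.40 (adjusted p = 0.00271). Of 11 tested ion channel transcripts 5 fell and 1 rose, with a median of -0.50. The pacemaker channel genes Hcn2 (-1.20 ± 0.23, adjusted p = 0.00121) and Hcn4 (-0.91 ± 0.22, adjusted p = 0.00888) fell, as did Scn4b, a sodium channel subunit (-0.84 ± 0.20, adjusted p = 0.00655), and both genes of the ATP-sensitive potassium channel in the list, Kcnj11 (-0.47 ± 0.10, adjusted p = 0.00429) and Abcc8 (-1.01 ± 0.23, adjusted p = 0.00481). The potassium channel subunit gene Kcne4 rose by 1.11 ± 0.24 (adjusted p = 0.00335).

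Calcium store and adrenergic genes held changes in both directions. Tmem38b, a counter-ion channel of the sarcoplasmic reticulum, rose without overlap from 20.3, 28.4 and 36.6 to 44.7, 63.8 and 73.5 CPM (1.18 ± 0.15, adjusted p = 9.77e-06), whereas Casq1, calsequestrin of skeletal type, fell without overlap by 1.20 ± 0.28 on the log2 scale (adjusted p = 0.00565). These were 2 of the 4 tested members, and the list median was -0.47 (without 24 h replicate 8, 2 members fell). Grk5, a kinase that desensitizes adrenergic receptors, rose without overlap from 3.26, 4.66 and 5.8 to 6.9, 10.2 and 12.9 CPM (1.08 ± 0.15, adjusted p = 2.73e-05). Adcy5, the main adenylyl cyclase of cardiomyocytes, fell by 0.46 ± 0.10 on the log2 scale (adjusted p = 0.00266), and Prkca, a protein kinase C, by 0.70 ± 0.17 (adjusted p = 0.00751). The receptor gene Adrb1 was -0.20 ± 0.16 (adjusted p = 0.559). The 6 tested members of this list had a median of -0.40.

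The mitochondrial genes in the study's list changed by modest amounts, and none of the tested members of the 3 mitochondrial lists rose. All 16 symbols of the respiratory list and all 14 of mitochondrial translation were among the study's changed transcripts. Their shared direction therefore says nothing of mitochondrial genes as a class. In the cycle of citrate and pyruvate entry 4 of 7 fell (median -0.49), in the list of the respiratory chain and ATP synthase 7 of 16 (median -0.53), and in mitochondrial translation 6 of 14 (median -0.49). The 7 were Sdhd, which is also counted in the first list, Coq5, Coq10a, Pdss1, Taco1, Lyrm7 and Higd1a. This list mixes subunits with genes of ubiquinone synthesis and assembly, and the subunit genes Atp5a1 and Uqcrfs1 did not pass. Pdhb, a subunit of pyruvate dehydrogenase, had 342, 426 and 499 CPM at 0 min and 229.5, 302 and 376 CPM at 24 h (-0.50 ± 0.12, adjusted p = 0.0102). Sdhd, a membrane anchor of complex II, fell by 0.56 ± 0.13 on the log2 scale (adjusted p = 0.00853). Taco1, which drives synthesis of a cytochrome oxidase subunit, fell by 0.66 ± 0.13 (adjusted p = 0.00141), and Coq5, an enzyme of ubiquinone synthesis, by 0.45 ± 0.11 without overlap (adjusted p = 0.00697). The ribosomal protein gene Mrpl18 fell from 59, 78.5 and 84.4 to 43.3, 47.6 and 61.8 CPM (-0.61 ± 0.13, adjusted p = 0.00234). Some core genes did not pass: Cs, citrate synthase, was -0.22 ± 0.11 (adjusted p = 0.254) and Atp5a1 -0.22 ± 0.11 (adjusted p = 0.243). Of the 4 cardiomyocyte markers given above 2 fell (Actc1 and Mybpc3), whereas Actn2 and Lmod2 did not pass, and the part of cardiomyocyte RNA in these values was not tested. Without the filter on low counts, the falls in the 3 lists, in the order above, numbered 1, 2 and 2, and at an adjusted p under 0.01 they numbered 2, 3 and 2. Respiratory falls numbered 4 without 0 min replicate 7, and those of mitochondrial translation 3 without 0 min replicate 1, 3 or 6 or without 24 h replicate 1.

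Fuel handling was mixed. In the list of fatty acid oxidation and PPAR targets 4 of 11 rose and 1 fell, with a median of 0.30. Plin2, a lipid droplet coat protein, rose from 58.8, 66.7 and 108 to 63.8, 159.7 and 261 CPM (1.17 ± 0.22, adjusted p = 0.000823). Cpt1a was 0.30 ± 0.16 (adjusted p = 0.303). Of the 5 calls in this list, 2, that of Plin2 among them, held in each of the 16 fits with 1 library left out. The rises numbered 2 without any 1 of 0 min replicates 1, 3, 4, 7 and 8 or of 24 h replicates 1, 2, 5, 6 and 7, and the fall of Perm1 was lost in 13 fits. Of lipid synthesis genes 3 of 7 rose, with a median of 0.62, among them Soat1, which esterifies cholesterol (1.36 ± 0.29, adjusted p = 0.00297), and Acaca, which makes malonyl-CoA (0.62 ± 0.16, adjusted p = 0.014). In sugar metabolism 2 of 8 rose and 3 fell, with a median of -0.31. The glycogen phosphorylase gene Pygl rose by 0.94 ± 0.21 (adjusted p = 0.00388) and the transporter gene Slc2a12 fell by 0.73 ± 0.20 on the log2 scale (adjusted p = 0.0201). The other falls, Pfkl and Phkg1, lost their calls in 12 and 14 of the 16 fits with 1 library left out, and the other rise, G6pdx, in 4 (without 24 h replicate 2, 3, 5 or 6). G6pdx is also counted in the antioxidant list.

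Vascular genes did not move together, with 3 rises and 3 falls among 18 tested and a median of 0.07. Besides Selp, Apln and Aplnr, Plxnd1, a semaphorin receptor of endothelium, fell without overlap from 304, 366 and 449 to 162, 196 and 273 CPM (-0.88 ± 0.12, adjusted p = 1.63e-05). Thbd, thrombomodulin, rose by 0.61 ± 0.12 (adjusted p = 0.00169), and Sele, E-selectin, by 1.43 ± 0.36 (adjusted p = 0.0129), a call lost in 3 of 25 alternatives, among them the fit without 24 h replicate 3. Icam1 was 0.70 ± 0.22 (adjusted p = 0.0525). Of 3 platelet markers 2 rose, Selp and Ppbp (2.73 ± 0.53, adjusted p = 0.00115), and Pf4 was 1.23 ± 0.49 (adjusted p = 0.144). Selp is also counted in the vascular list and Ppbp in the neutrophil chemokine list. Among immediate early genes, which answer a stimulus within minutes, 1 of 11 rose and 2 fell, with a median of -0.51. Egr1 fell by 1.48 ± 0.42 on the log2 scale (adjusted p = 0.0265) with a wide spread at 0 min, 22, 52.1 and 225 CPM against 15.2, 28 and 43.4 CPM at 24 h. Its call and that of Nr4a1 (-1.29 ± 0.37) were lost in 5 and 5 of the 16 fits with 1 library left out, and that of Ctgf (0.88 ± 0.26) in 13. The list held no fall without 0 min replicate 6 or 24 h replicate 2 or 5, 1 fall without 0 min replicate 1, 4 or 5 or 24 h replicate 3, and 4 falls without 24 h replicate 4.

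**Figure D4:**
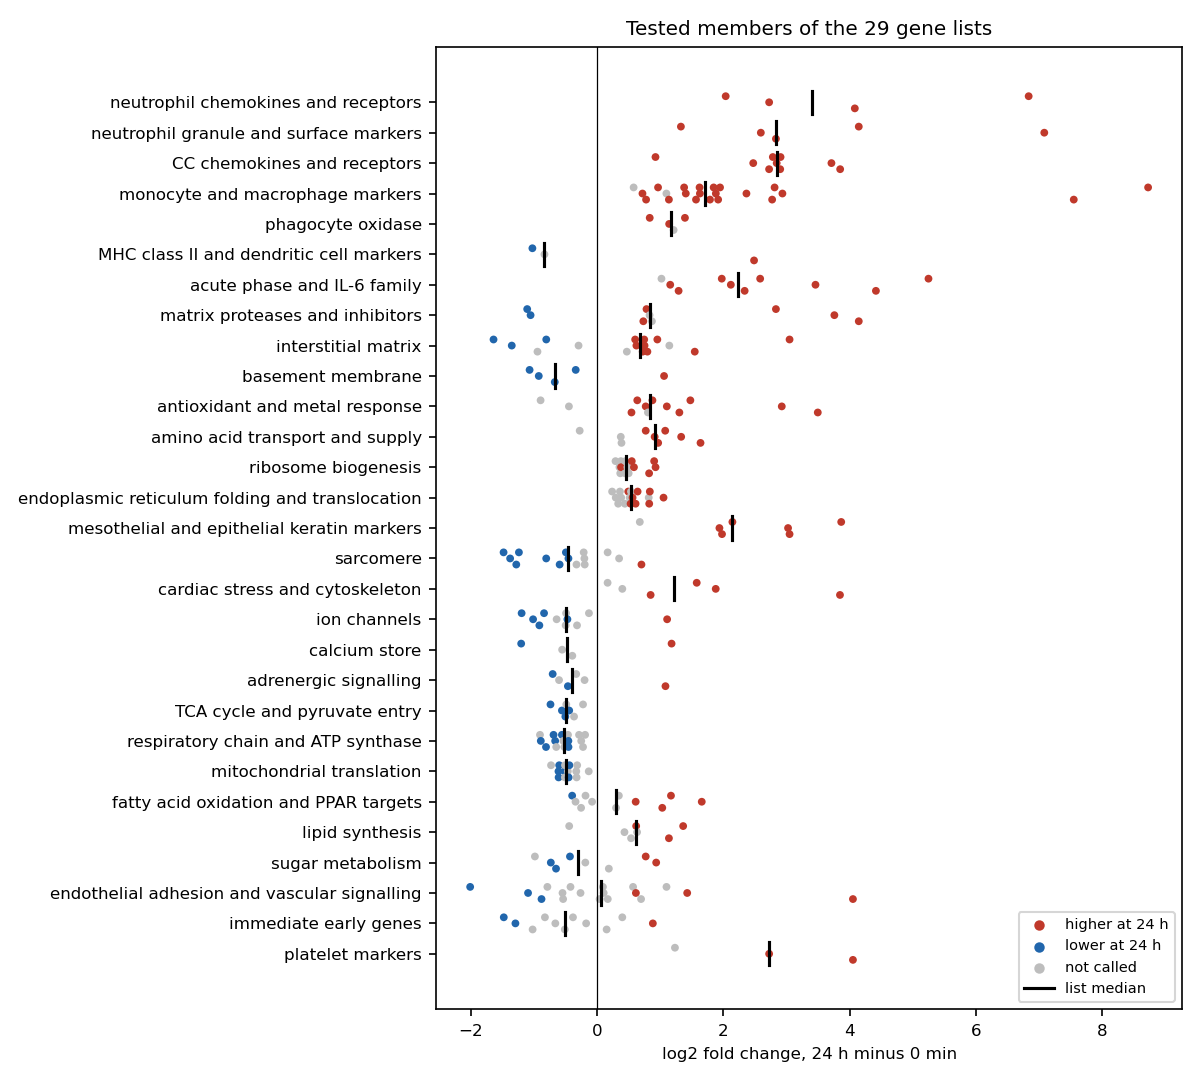
Log2 fold change, 24 h minus 0 min, of each tested member of the 29 gene lists (1 list a row). Red and blue points are called higher and lower, grey points are not called, and black bars are list medians, from 3.40 for neutrophil chemokines and receptors to -0.83 for class II and dendritic cell markers.

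A score for each mouse, the mean over a list's tested members of log2(CPM + 0.5) minus the 0 min mean, showed how far the animals agreed. In 13 of 29 lists all 8 mice at 24 h lay outside the range of the 0 min mice, and in 5 more 7 did. List members came from the study's transcripts that changed over time in these same libraries, so this separation is partly built in. For neutrophil chemokines the 0 min scores were -0.38 to 0.56 and the 24 h scores 1.56 to 3.77, with the median at 2.74. For monocyte and macrophage markers they were -0.30 to 0.45 and 0.57 to 2.53. Sarcomere scores were -0.09 to 0.10 at 0 min and -0.73 to -0.21 at 24 h. The response differed in size between animals: replicate 8 had the lowest 24 h score in 15 lists, which include the leukocyte, chemokine and acute phase lists, and it had the highest sarcomere score of the 24 h mice. Replicate 3 had the highest score in 10 lists, and replicate 2 the lowest in the sarcomere list and in the 3 mitochondrial lists.

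**Figure D5:**
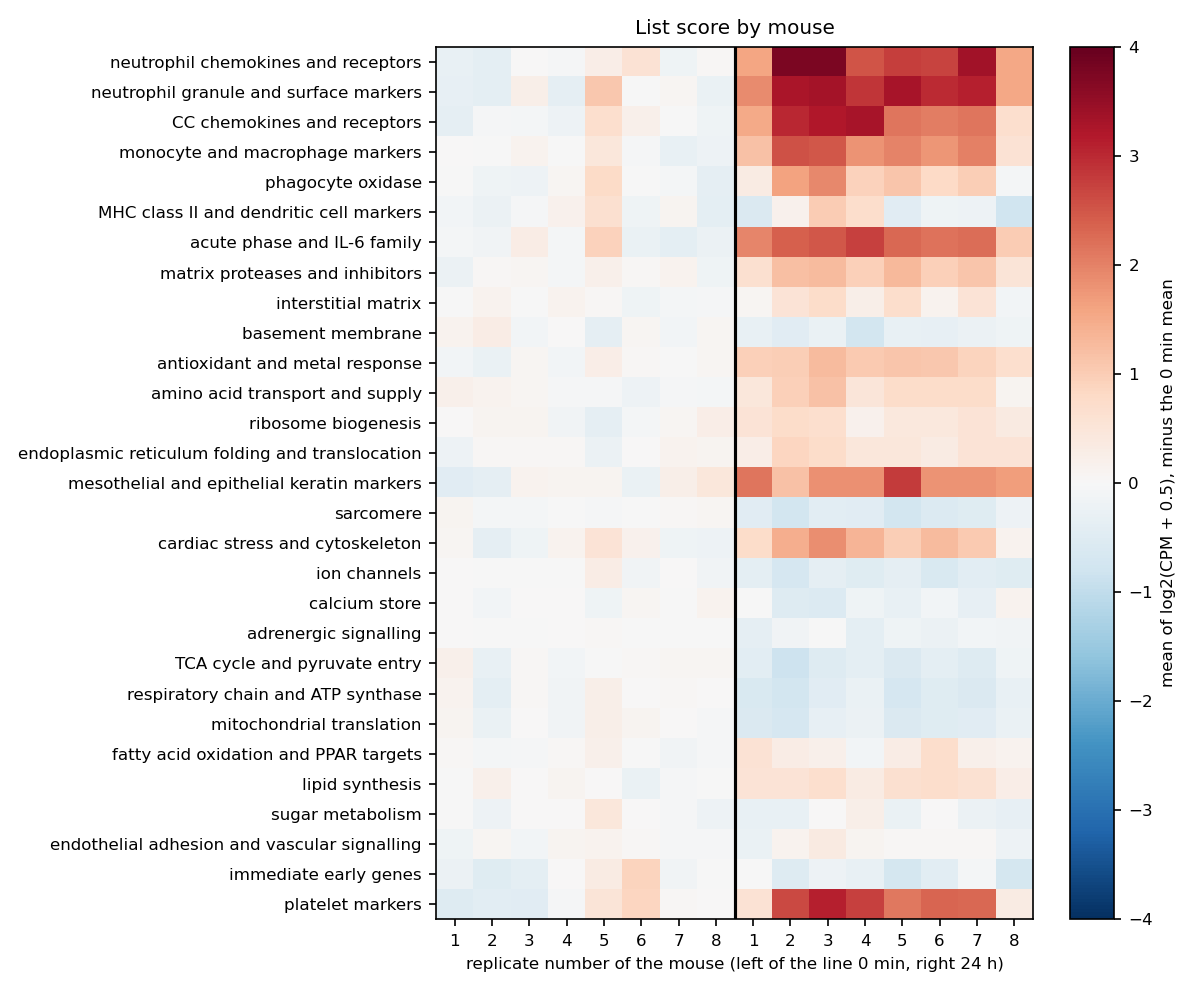
List score of each mouse (color, mean of log2(CPM + 0.5) over members minus the 0 min mean), with lists as rows and the 8 mice at 0 min and 8 at 24 h as columns on either side of the line. Red is higher and blue lower than the 0 min mean; for monocyte and macrophage markers the 24 h mice run from 0.57 (mouse 8) to 2.53 (mouse 2).

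The level at 24 h was also compared with that at 45 min in the same fit, which called 813 transcripts (9.09% of those tested). Both comparisons share the 24 h mice, and their values stand side by side only. Among the 12 largest rises, 11 exceeded their 45 min level, by 8.93 (Arg1, adjusted p = 1.14e-08) down to 1.70 (Ccl7, adjusted p = 0.012). Has1 was the exception, with a difference of 0.04 (adjusted p = 0.956) and a median of 1.04 CPM at 45 min. A pair of genes that were higher at 24 h than at 0 min were lower than at 45 min, Cxcl1 by 1.71 on the log2 scale (adjusted p = 0.000402) and Socs3 by 1.28 (adjusted p = 0.0435). All 12 of the largest falls were lower than at 45 min too, from -2.77 (Gm28979, adjusted p = 8.31e-08) to -1.45 (Lrrc15, adjusted p = 2.00e-05).

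The filter on low counts asks for enough counts in at least 8 libraries and removed 112 transcripts with a symbol, some of which changed strongly. Cxcl3, a further ligand of Cxcr2, held 1 count over the 8 libraries at 0 min and 525 at 24 h, with 7 to 136 per mouse, a ratio of scaled levels of 434 with a 95% counting interval of 77.6 to 17200. Sprr1a, a stress-induced protein of cardiomyocytes, had at most 2 counts in a library at 0 min and 5 to 267 at 24 h. Tnc, or tenascin C, a matrix protein of injured tissue, had at most 8 counts at 0 min and 6 to 208 at 24 h. Cdh1, E-cadherin of epithelia, had no count at 0 min and 3 to 26 per mouse at 24 h, at least 23.4-fold higher when set against 3 counts over the 0 min group. In a fit without the filter, 51 of the 112 transcripts were higher and 9 lower.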

How the data were processed

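PolyA RNA of the left ventricle was sequenced from 24 mice, 8 at each of 3 times after sham surgery (0 min, 45 min, 24 h). Per the submitters' processing notes and the study's methods, the authors trimmed reads with cutadapt 1.9.1, aligned them to mm10 with TopHat 2.1.0 and Bowtie 2.2.9, and counted them with htseq-count 0.6.0. The deposited values are raw counts per UCSC transcript. The counting mode, strand setting and transcript release are not given in the sources used here, so reads shared by transcripts or by close gene copies (Chil3, the Serpina3 and Ms4a6 families, metallothioneins, keratins) may have been split or dropped. Symbols came from the study's list of 1209 transcripts that changed over time, of which 1097 passed the filter. Transcripts outside that list are called unnamed here. Positions of named genes were looked up by symbol in GENCODE M21, and promoters in RefSeq, both on GRCm38.

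Counts were filtered with filterByExpr (minimum count 10, minimum total 15), scaled with TMM and fitted in R 4.3.3 with edgeR 4.0.16 (quasi-likelihood test, Benjamini-Hochberg adjustment, threshold 0.05) on all 24 libraries with time as the only factor. The fit tested 8940 transcripts. Alternatives, described in the closing section, used other scalings, filters, DESeq2 1.42.0, limma 3.58.1 (voom), a replicate block, only the 16 libraries, and each library left out in turn. The 12 transcripts named by size in each direction are those with the largest change among transcripts called, without overlap between groups and with a mean count of at least 10 in the higher group. They were taken from 86 eligible rises and 56 eligible falls. The members and gene lists were chosen with earlier results of these data known.

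On simulated counts for the comparison of 24 h with 0 min, over 8940 transcripts, the script found 59% of changes of 1 and 93% of changes of 2 on the log2 scale, with 1.3% false among 154 calls. The 16 libraries held 9887957 to 13717859 counts, and intervals and floors (95%, 3 counts) cover counting error only. All 56 pairs of replicates within the groups compared differed by far more than sampling noise (chi-square per degree of freedom of 10.9 to 462), so none was counted as a repeat. The study's methods give 8 animals per time, and p-values measure the spread between these samples. Some results are not reported here.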

Additional observations from a re-analysis of the deposited data

Results flagged for a closer look

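Each of the 24 transcripts named by size, each of the 29 list scores and 3 library measures (total count, transcripts detected and the share of the 20 most abundant) was searched for a mouse far from the other 7 of its group, with the gap to its nearest neighbor divided by the range of the group (Dixon's ratio, at the 95% critical value). Of 112 groups of 8, 8 exceeded it, and chance gives about 1 in 20. The flags are not independent, since Lcn2 and Serpina3n are also members of the flagged neutrophil marker and acute phase scores.

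Of these, 5 concern the 0 min mouse numbered 5, which was the highest of its group. Its Lcn2 level was 7.52 CPM against 2.38 CPM in the next mouse (ratio 0.577), and its neutrophil marker score was 1.06 against 0.23 (0.576). Its phagocyte oxidase score was 0.76 against 0.08 (0.608), its ion channel score 0.28 against 0.02 (0.623), and its sugar metabolism score 0.45 against 0.01 (0.675).

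At 24 h, replicate 8 was the lowest for Serpina3n, with 176 CPM against 382 CPM in the next mouse (ratio 0.62), and for the acute phase score, with 1.02 against 1.94 (0.534). Replicate 4 was the highest for Fam78a, with 10.7 CPM against 5.29 CPM (0.542).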

How the results depend on the processing

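The count of 687 transcripts stayed within 1.5 times under RLE scaling (692), upper quartile scaling (681), limma-voom (693), no filter on low counts (565), a stricter filter (558), DESeq2 (922) and a fit of only the 16 libraries (794). It was 364 at an adjusted p under 0.01. With 1 library left out it ranged from 513 (without 24 h replicate 2) to 938 (without 24 h replicate 4). Without 24 h replicate 4 the split was 430 higher and 508 lower, a higher share of 45.8% against 57.8% with all libraries, without replicate 3 it was 277 and 287 (49.1%), and without replicate 8 it was 399 and 389 (50.6%). Leaving out 24 h replicates 4 and 8 together, chosen after seeing the data, gave 922. No called transcript among those named by size or in a list changed sign, and 4 list members that were not called did. All 24 transcripts named by size kept their call, as did 91 of the other 157 called list members, and the cause of the losses was not tested.

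No mice were shared between groups. With the replicate number as a block the count was 617, and 656 for 24 h against 45 min (813 without the block). The numbers did not pair the samples: the deviations of same-numbered mice correlated at over 0.1 in 6 of 8 numbers, from -0.311 to 0.522, and 1 of 8 correlated best with its own number. Depth limits the low transcripts, of which 112 with a symbol were not tested.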

Other observations

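Among called transcripts with a symbol outside the 29 lists and the 24 named by size, 246 were higher and 190 lower. The genes that follow were chosen after their values were seen and are given as values. Several are linked to hyaluronan and prostaglandins: Ptx3, a soluble pattern receptor that binds the hyaluronan matrix (3.49 ± 0.40, adjusted p = 1.92e-06), Tnfaip6, which cross-links hyaluronan (1.71 ± 0.32, adjusted p = 0.000822), the hyaluronan synthase gene Has2 (1.61 ± 0.33, adjusted p = 0.00199), and the cyclooxygenase gene Ptgs2 (1.78 ± 0.41, adjusted p = 0.00583). Cytokine receptor and adaptor genes were higher as well, with Il17ra at 1.79 ± 0.26 (adjusted p = 3.46e-05), Tnfrsf1a at 0.75 ± 0.20 (adjusted p = 0.0155) and Myd88 at 0.91 ± 0.17 (adjusted p = 0.000999). The lysosomal protease genes Ctsz (1.00 ± 0.19), Ctsc (0.72 ± 0.13) and Ctsl (0.71 ± 0.11) rose too, with adjusted p = 0.000797, 0.000597 and 0.000123.

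Lower transcripts outside the lists included Dbh, which makes noradrenaline (-2.53 ± 0.52, adjusted p = 0.00198), Lrat, which stores vitamin A as esters (-2.51 ± 0.69, adjusted p = 0.0226), Ramp1, a coreceptor of the calcitonin receptor-like receptor (-1.74 ± 0.47, adjusted p = 0.0194), and Crhr2, the urocortin receptor of the heart (-0.94 ± 0.20, adjusted p = 0.00242).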
